A study of Mus musculus with 16 samples.

Results

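The uninduced ER-Pax7 state of AtT-20 cells was described from 3 libraries of the 16 in the series, without a comparison between times. AtT-20 is an established mouse corticotrope tumour line. These cells carry a 3x flag-ER-Pax7 construct, in which the transcription factor Pax7 is joined to part of the oestrogen receptor, so that 4-hydroxytamoxifen can switch it on. They were labelled as not treated, were at passages 10 to 20 and grew as adherent cells in medium with 10% fetal bovine serum. The labels do not say whether the 3 libraries came from separate cultures or whether the line is a single clone, so every spread given here may be technical. The other libraries, of the same cells at 12, 24 and 96 h of induction and of cells expressing Neo or Pax7, were not used here, except that the 2 Neo libraries served as a check of presence.

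Corticotropes are the anterior pituitary cells that make adrenocorticotropic hormone. They cut it from a larger precursor, pro-opiomelanocortin, the product of Pomc, inside dense-core granules that are released when hypothalamic corticotropin-releasing hormone or vasopressin reaches the cell. Glucocorticoids from the adrenal gland act back on the same cell through the glucocorticoid receptor. Melanotropes of the intermediate lobe also make Pomc, but cut its product further with the convertase Pcsk2, and Pax7 is the factor that specifies them.

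The libraries held 61.4 M, 62.0 M and 88.7 M read mates in exons (M, mega). Levels below are scaled exon reads per kb of exon, that is, the deposited value divided by the exon length, so that genes of different length can be compared. They are shares of a library and give no amount of RNA per cell. A gene was counted as detected with at least 10 read mates in each of the 3 libraries, as trace if it read above 0 in any library without reaching that, and as listed at 0 if all 3 libraries read 0. By this rule 14395 of 24063 genes (59.8%) and 13343 of 20625 protein-coding genes (64.7%) were detected, and these shares are the background for every list below. Detected genes were put into 3 bands by mean level: high (the top 10%, 1440 genes from 439.4 per kb), middle (above the median, 5758 genes from 73.5 per kb) and low (the remaining 7197). All 25 housekeeping genes examined were detected, at 50.5 to 9109 per kb, while 1281 of 1432 olfactory and vomeronasal receptor genes were listed at 0. Replicates lay close together, with Pearson correlations of 0.996 to 0.997 across the detected genes of each pair of libraries. Genes are not independent replicates, so these correlations describe the libraries only.

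Of 34 gene lists with 935 members, 519 members were detected and 220 were listed at 0. The share detected differed between lists. Among granins and other granule proteins 22 of 24 members were detected, and among peptide-processing enzymes 18 of 21. Of the hormone, peptide and amine receptors 30 of 119 were detected, and of the other peptide hormones 20 of 63, while growth factor and cytokine receptors had 42 of 57 and nuclear receptors 30 of 49. Of genes of transmitter synthesis and transport 12 of 25 were detected.

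**Figure D1:**
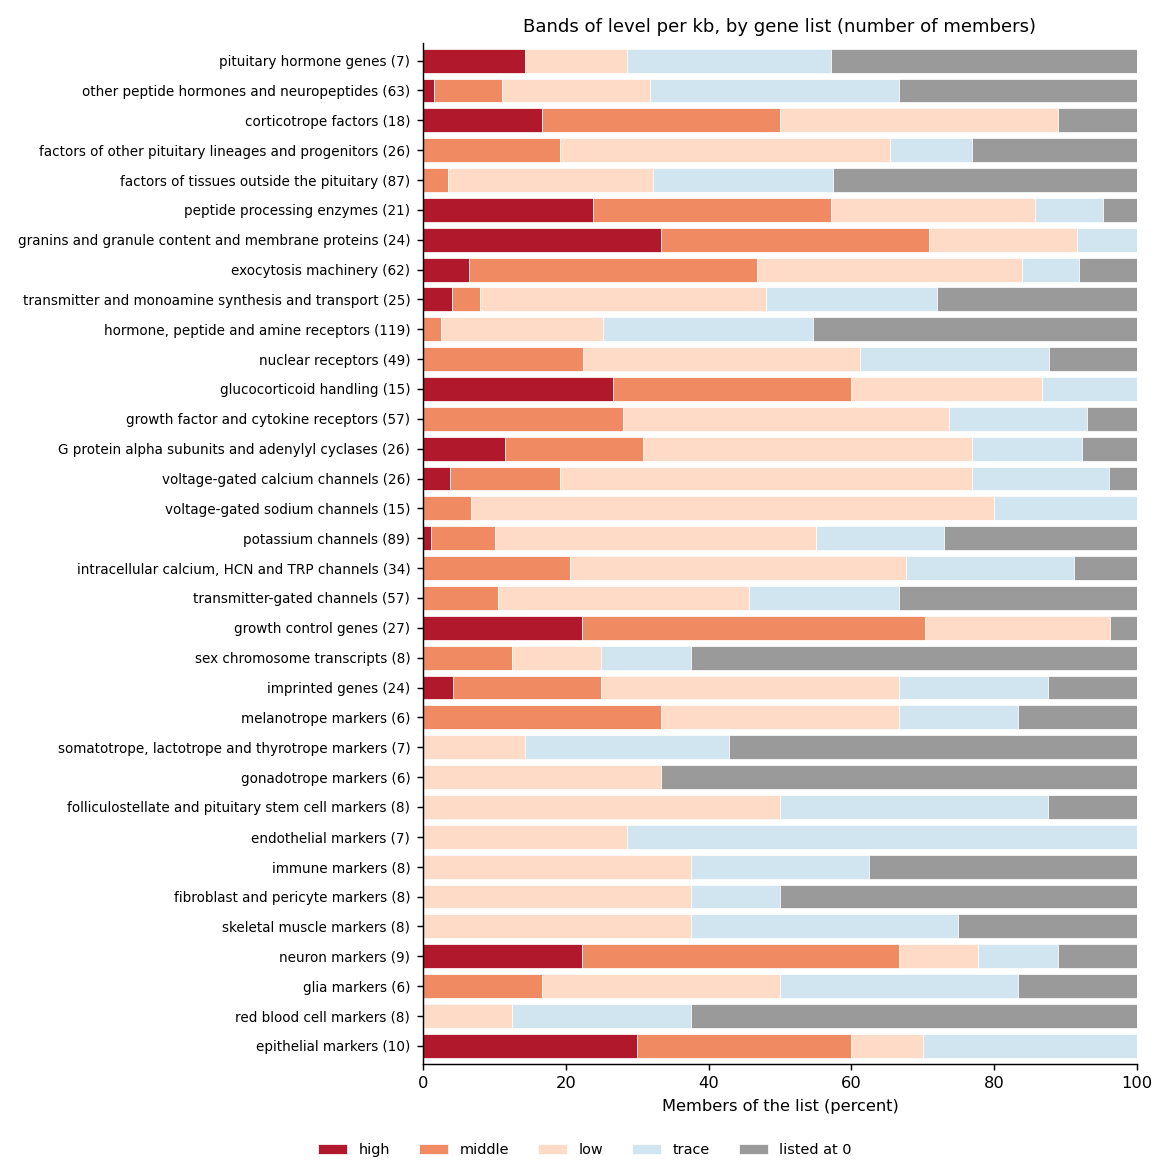
Share of the members of each gene list in each band of level per kb, in the 3 uninduced libraries; the number of members is in brackets. The high band takes 8 of the 24 granule content and membrane proteins and 0 of the 119 hormone, peptide and amine receptors.

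The construct genes were read first. Pax7 (mm10 chromosome 4, 139738081 to 139832968) stood at 413, 401 and 394 per kb, rank 1593 of all genes. Esr1 (mm10 chromosome 10, 4612046 to 5003761), which encodes the oestrogen receptor, stood at 260.3, 269 and 257 per kb. The Pax7 to Esr1 ratio per kb was 1.54 ± 0.0456 (SD, n = 3), and both were in the middle band before any inducer was added. Each value was divided by the full exon length of its gene, 4264 bases for Pax7 and 4308 for Esr1. The construct holds only part of the oestrogen receptor, and the length of each gene within it was not examined. The ratio and these levels per kb therefore do not compare amounts of transcript. The deposited values are per gene and do not separate the fusion from the cells' own Pax7 and Esr1 transcripts. In the Neo cells Pax7 was listed at 0 and 0.01 FPKM and Esr1 at 0 in both libraries. Of the 7198 genes in the high and middle bands, 3 were listed at 0 in at least 1 Neo library: Pax7, Esr1 and the ribosomal protein pseudogene Rpl31-ps12.

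Pomc (RefSeq NM_001278582, mm10 chromosome 12, 3954945 to 3960643) was the most abundant messenger RNA of these cells. It read 83156, 78660 and 81443 per kb, a mean of 81086 ± 2269 (SD, n = 3), which made 1.25% to 1.32% of all exon reads. Only the short RNA component of ribonuclease P, Rpph1, ranked above it per kb, at 103898 ± 3941 (SD, n = 3). Among genes with a messenger RNA accession and at least 500 bases of exon, the next was the translation elongation factor Eef1a1 at 21437 per kb. Next came the granule protein chromogranin A, Chga, at 15505 per kb, above the glycolytic enzymes Aldoa (13758), Pkm (10349) and Ldha (8644). The ribosomal proteins Rps14 and Rplp0, with Ppia, Atp5b, Actb, Mif and Ptma, were also among the first 15, at 7343 to 9109 per kb, together with Resp18, a granule protein of endocrine cells, at 7811. Pomc thus exceeded Chga by 5.23 ± 0.138 times and its own cleaving enzyme Pcsk1 by 21.7 ± 0.846 times (SD, n = 3).

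The bases before the start of Pomc and of 4 granule genes are shown because these genes carry the secretory identity of the line and because their windows differ in 2 short motifs. The windows are the 250 bases upstream of the RefSeq start on the gene's strand, from the RefSeq promoter table of GRCm38.p6. The motifs searched, on both strands, were the TATA box TATAAA and the full cAMP response element TGACGTCA, the site bound by CREB-family factors, whose letters read the same on both strands and cannot overlap a TATA box. Capitals mark a match.
Pomc, chr12:3954695-3954944, plus strand: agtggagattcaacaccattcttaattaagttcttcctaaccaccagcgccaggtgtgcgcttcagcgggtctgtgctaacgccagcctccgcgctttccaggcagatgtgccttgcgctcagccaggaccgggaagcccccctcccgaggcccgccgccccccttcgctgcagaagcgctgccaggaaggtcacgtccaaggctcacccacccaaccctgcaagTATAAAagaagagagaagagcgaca
Pcsk1, chr13:75089607-75089856, plus strand: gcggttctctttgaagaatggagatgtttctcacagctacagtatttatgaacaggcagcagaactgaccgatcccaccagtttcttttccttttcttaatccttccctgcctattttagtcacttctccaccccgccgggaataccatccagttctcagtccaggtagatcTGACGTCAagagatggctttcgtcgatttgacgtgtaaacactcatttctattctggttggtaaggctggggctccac
Chgb, chr2:132781392-132781641, plus strand: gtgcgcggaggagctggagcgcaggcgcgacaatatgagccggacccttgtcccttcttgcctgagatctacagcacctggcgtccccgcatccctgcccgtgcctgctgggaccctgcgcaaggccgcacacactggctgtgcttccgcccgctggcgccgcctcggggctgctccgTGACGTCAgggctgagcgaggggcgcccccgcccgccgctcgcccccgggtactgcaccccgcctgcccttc
Scg2, chr1:79440027-79440276, minus strand: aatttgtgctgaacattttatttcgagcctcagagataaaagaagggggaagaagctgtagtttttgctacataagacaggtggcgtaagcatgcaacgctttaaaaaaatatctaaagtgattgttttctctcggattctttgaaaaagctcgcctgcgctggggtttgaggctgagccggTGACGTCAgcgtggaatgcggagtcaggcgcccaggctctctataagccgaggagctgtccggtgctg
Pcsk2, chr2:143545883-143546132, plus strand: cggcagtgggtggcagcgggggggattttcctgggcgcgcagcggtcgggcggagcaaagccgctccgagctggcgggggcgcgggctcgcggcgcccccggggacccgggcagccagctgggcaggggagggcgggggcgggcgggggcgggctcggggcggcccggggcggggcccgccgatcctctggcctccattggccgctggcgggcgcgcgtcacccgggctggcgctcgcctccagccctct

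The Pomc window held a TATA box that begins 25 bases before the start and no full cAMP response element. The windows of Pcsk1, Chgb and Scg2 each held the cAMP response element, beginning 78, 72 and 68 bases before the start, and no TATA box. The window of Pcsk2 held neither, and neither did those of Chga and of Tbx19, the corticotrope factor described below. Only exact matches were counted, and the Chga window held TGACGTAA, which differs from the full cAMP response element at a single base. Of the 16826 genes of the table that had a window, 2.26% held the cAMP response element and 13.2% the TATA box. Among all 32851 windows of the table the shares were 1.55% and 12.4%. In the granin and granule list 3 of 18 members with a window held the cAMP response element (Chgb, Scg2 and the synapsin gene Syn1), and in the processing list 1 of 16, Pcsk1. All 6 pituitary hormone genes with a window held a TATA box, though only Pomc among the 7 hormone genes was abundant. The share of genes with a match followed the bands in opposite directions for the motifs. For the cAMP response element it was 4.40% in the high band, 3.12% in the middle, 2.73% in the low, 1.22% at trace and 0.702% among genes listed at 0. For the TATA box it was 6.65%, 6.93%, 8.80%, 15.6% and 26.8% in the same order. These are descriptions of letters in a fixed window. Neither a match nor its absence shows whether a factor binds.

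**Figure D2:**
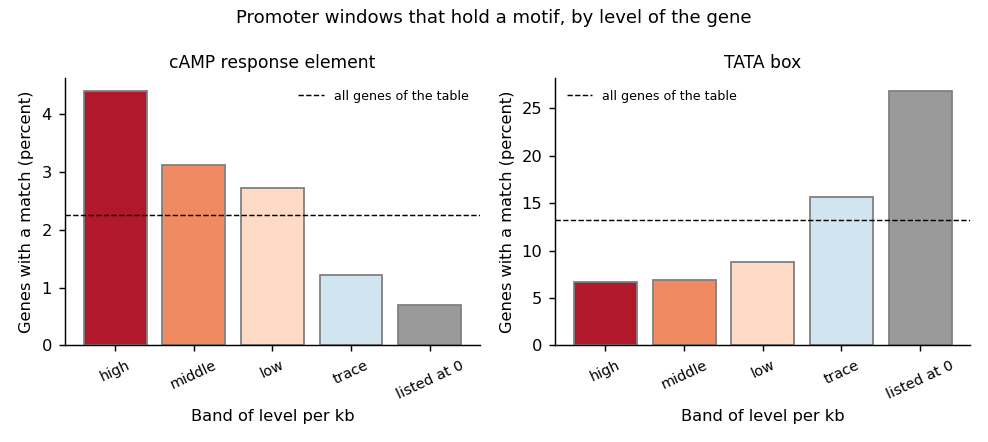
Percent of genes whose 250 bases before the start hold the motif, by band of level per kb; the dashed line is the share over all genes of the table with a window. The cAMP response element falls from 4.40% in the high band to 0.702% among genes listed at 0, and the TATA box rises from 6.65% to 26.8%.

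Beside Pomc, the pituitary hormone genes were near or at 0. Lhb, the beta chain of luteinizing hormone, read 2.34, 3.00 and 2.10 per kb on 10, 13 and 13 read mates, just past the detection rule, and 20.4% of its exon length overlaps Ruvbl2. Cga, the alpha chain shared by the glycoprotein hormones, was at trace with 4, 4 and 2 mates. Growth hormone, Gh, was at trace with 0, 0 and 2 mates. Prolactin (Prl) and the beta chains of thyrotropin (Tshb) and follicle-stimulating hormone (Fshb) had no mate in any library. For Prl such a count allows a mean level of up to 0.355 per kb (3 mates in each library), against 81086 for Pomc.

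Other secreted peptides were present at levels far under Pomc. The highest was stanniocalcin 2, Stc2, at 492, 515 and 517 per kb, followed by the gut hormone secretin, Sct, at 344, 335 and 313. Nucb2, the nesfatin precursor, stood at 224 per kb, and Calca, the calcitonin gene, at 166 with overlapping values for Stc1 at 164. Angiotensinogen (Agt) stood at 148 and adrenomedullin 2 (Adm2) at 132 per kb, and amylin (Iapp) at 69.8. Melanin-concentrating hormone, Pmch, read 47.3 per kb, but 58.1% of its exon length overlaps Parpbp, and without strand the reads of each cannot be told apart. Of the 63 members 21 were listed at 0, among them the hypothalamic hormones Crh, Avp and Trh, the opioid precursor Penk, Npy, Vip and both insulin genes, and 22 were at trace.

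The corticotrope factors were nearly all present, 16 of 18. Tbx19, the T-box factor that defines Pomc cells (mm10 chromosome 1, 165137853 to 165160773), read 1109, 1087 and 1045 per kb, in the high band with rank 477. The general co-repressor Hdac2 had overlapping values at 1107, 1059 and 1087. Insm1, a zinc finger factor of endocrine differentiation, stood at 326, with values that overlap those of the glucocorticoid receptor Nr3c1 at 312. Stat3, through which leukaemia inhibitory factor acts, stood at 382 and the chromatin remodeller Smarca4 at 364. Neurod1, the partner of corticotrope Pomc transcription, was at 163, 177 and 168 per kb, 6.39 ± 0.362 times under Tbx19 (SD, n = 3).

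Pitx1 and the Nr4a factors were lower. Pitx1, first cloned as a Pomc regulator, read 53.6, 52.5 and 54.4 per kb, in the low band and 20.2 ± 0.869 times under Tbx19 (SD, n = 3). Of the Nr4a orphan receptors, which answer to corticotropin-releasing hormone, Nr4a2 was the highest at 111 per kb, above Nr4a1 (Nur77) at 16.8 and Nr4a3 at 1.66. The LIM factors of the early pituitary were close to the detection limit, Lhx4 at 2.17 and Lhx3 at 0.787 per kb, and Otx1 stood at 5.73. Isl1 and Ikzf1 had no mate in any library, which allows up to 0.125 and 0.0644 per kb.

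Of factors of other pituitary lineages 17 of 26 were detected (65.4%, near the 64.7% of all protein-coding genes), none in the high band. The progenitor factor Six6 read 123, 122 and 118 per kb, and Eya1 stood at 95.9. Pax6 stood at 58.9, Gata2, a gonadotrope and thyrotrope factor, at 38.7, the Notch targets Hes1 at 35.2 and Hey1 at 33.0, and the stem cell factor Sox2 at 31.0 per kb. Nr5a1 (SF1), the gonadotrope factor, read 2.12, 2.10 and 2.35 per kb. Pou1f1, the factor of the somatotrope, lactotrope and thyrotrope lineages, was listed at 0, and so were Hesx1, Foxl2, Prrx1, Sox3 and Otx2.

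**Figure D3:**
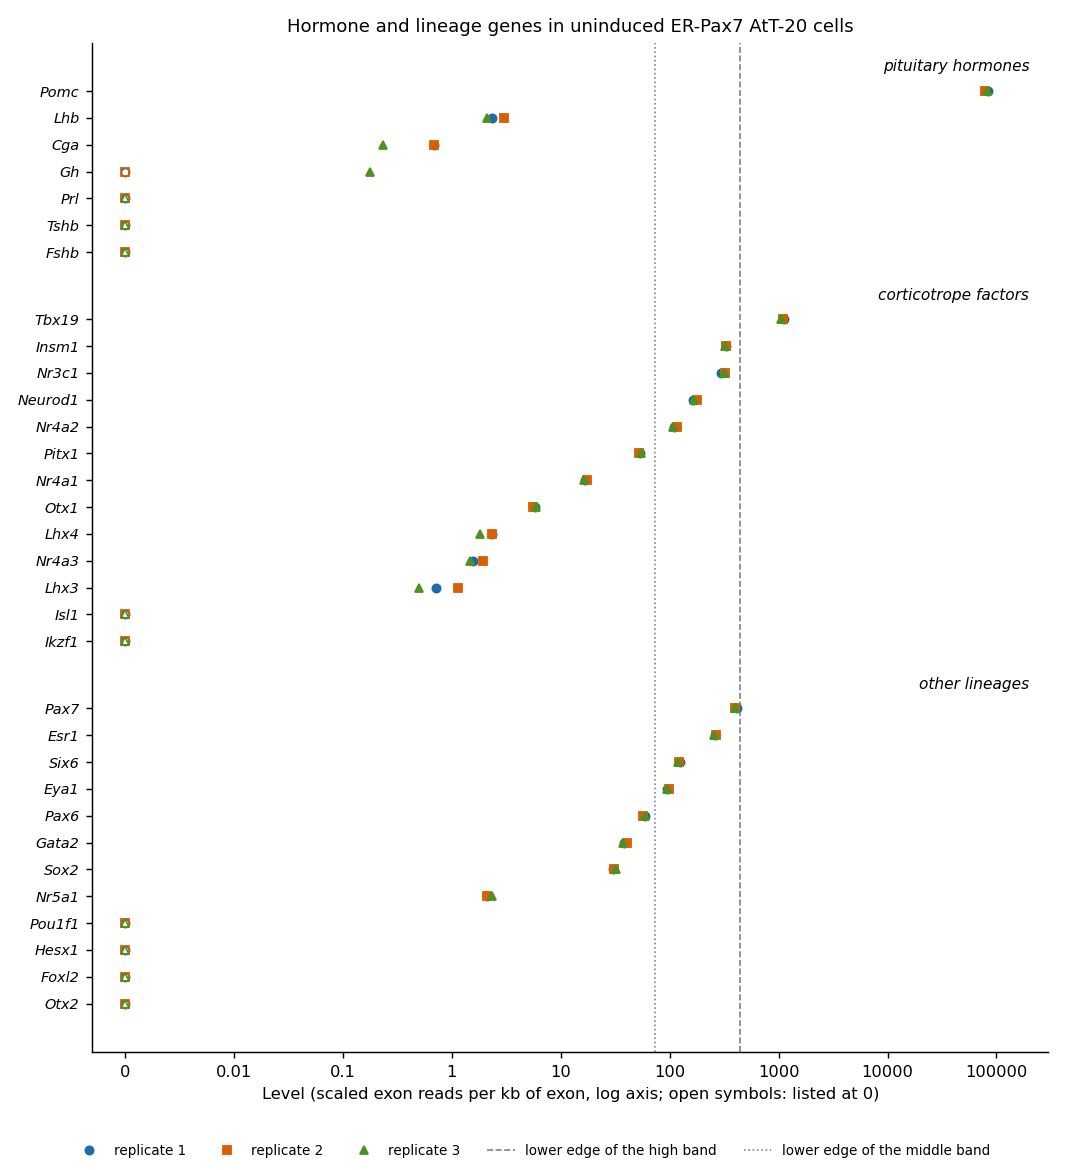
Level of hormone and lineage genes in each of the 3 uninduced libraries on a log axis, with open symbols at the left for a value of 0; the lines mark the lower edges of the high and middle bands. Pomc stands alone at a mean of 81086 per kb, and Tbx19, at 1045 to 1109 per kb, is the highest of the factors shown.

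The melanotrope marker list had 4 of 6 members detected (66.7%, near the 64.7% of all protein-coding genes). Pax7 is the construct gene described above. Megf11, a membrane protein with EGF-like repeats, read 333, 327 and 303 per kb, in the middle band, and was also above 0 in both Neo libraries. Pcsk2 was low at 39.8, 40.3 and 37.8 per kb. Oacyl, an acyltransferase family gene, read 0.586, 0.545 and 0.261 per kb on 17, 16 and 11 mates, Esm1 was at trace and the dopamine receptor Drd2 was listed at 0 (up to 0.205 per kb). Levels at other times and their differences were not examined here.

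Homeobox and other factors of tissues outside the pituitary were detected for 28 of 87 members. The highest was Hoxd8, at 171, 176 and 169 per kb, followed by the forkhead factors of endoderm Foxa2 at 143 and Foxa1 at 75.8. The cardiac factor Nkx2-5 stood at 32.2 and the neural and islet factor Nkx2-2 at 23.7 per kb. The Hox clusters differed in how many of their genes were detected: 9 of 11 in Hoxa, led by Hoxa5 at 23.0 per kb, 0 of 10 in Hoxb, 2 of 9 in Hoxc and 3 of 9 in Hoxd. The myogenic factors Myod1, Myf5 and Myf6, the islet factors Pdx1 and Nkx6-1 and the pluripotency factor Nanog were among 37 members listed at 0.

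Enzymes that turn the precursor into hormone were abundant. Carboxypeptidase E, Cpe, which trims the basic residues left by the convertases, read 4547, 4527 and 4806 per kb. Pcsk1, the convertase that releases adrenocorticotropic hormone, read 3759, 3801 and 3669 per kb. Pcsk1 exceeded Pcsk2 by 95.3 ± 1.61 times (SD, n = 3). Scg5 (7B2), the chaperone of Pcsk2, stood in the high band at 1464 per kb although Pcsk2 itself was low. Cathepsin L (Ctsl) stood at 1357, with 26.8% of its exon length shared with other annotated transcripts, and Pam, the amidating enzyme, at 811 per kb. Pcsk1n (proSAAS), an inhibitor of Pcsk1, was lower at 189, 158 and 160 per kb, with the first library above the others.

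The convertases of the constitutive pathway were far under Pcsk1. Pcsk7 stood at 83.9 per kb, in the middle band, and Furin at 38.6 and Pcsk6 at 38.7 per kb had values that overlapped those of Pcsk2. Cpd, the second carboxypeptidase, was 47.9 ± 2.25 times under Cpe (SD, n = 3). Pcsk5 was listed at 0.

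The granins Chga, Chgb and Scg2 were all in the high band. Chga read 15681, 15514 and 15321 per kb, Chgb 6185, 6171 and 6012, and Scg2 1527, 1527 and 1445. These acidic proteins aggregate with the hormone in the granule core. The ratios between them varied little between libraries: Chga to Chgb 2.53 ± 0.0173, Chgb to Scg2 4.08 ± 0.0669 and Scg2 to Scg3 2.16 ± 0.0575 (SD, n = 3). Resp18 read 8143, 8042 and 7248 per kb, with the third library under the others. The proton pump accessory subunit Atp6ap1 (766), the granule membrane cytochrome Cyb561 (746), Scg3 (695), which tethers granins to the membrane, and the chaperone Dnajc5 (544) completed the high band. The neuropeptide precursor Vgf stood at 212, and the granule membrane phosphatase-like proteins Ptprn and Ptprn2 at 243 and 177 per kb. The zinc transporter Slc30a8 and the synaptic vesicle protein Sv2b were at trace.

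Of the machinery of exocytosis 52 of 62 members were detected. The SNARE protein Snap25 led at 1050, 1104 and 1070 per kb, 14.0 ± 0.891 times the level of its relative Snap23 (SD, n = 3). Complexin 2, a clamp of the SNARE complex, stood at 748 per kb, 74.1 ± 12.8 times above complexin 1. Among vesicle SNAREs, Vamp8 stood at 674 and Vamp3 at 431 per kb, whereas Vamp2, the synaptic form, was at 35.3, 12.3 ± 1.38 times under Vamp3. Among calcium sensors, Syt7 stood at 447, Syt4 at 430 and Syt1 at 146 per kb, and 10 of 11 synaptotagmins were detected. All 4 Rab3 genes were detected, led by Rab3a at 307 per kb, and Rab27a at 293 exceeded Rab27b at 65.4. Sytl4 (granuphilin), which docks granules through Rab27, stood at 369 per kb.

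Some members of the same families were missing. The neuronal target SNARE Stx1a was at trace with 13, 9 and 9 mates. The priming factor Cadps stood at 77.9 per kb, but Cadps2 was listed at 0. Vamp7, Unc13c, Sytl5 and Syt10 were also listed at 0. In this table Vamp7 is placed on an unplaced scaffold of the X chromosome.

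**Figure D4:**
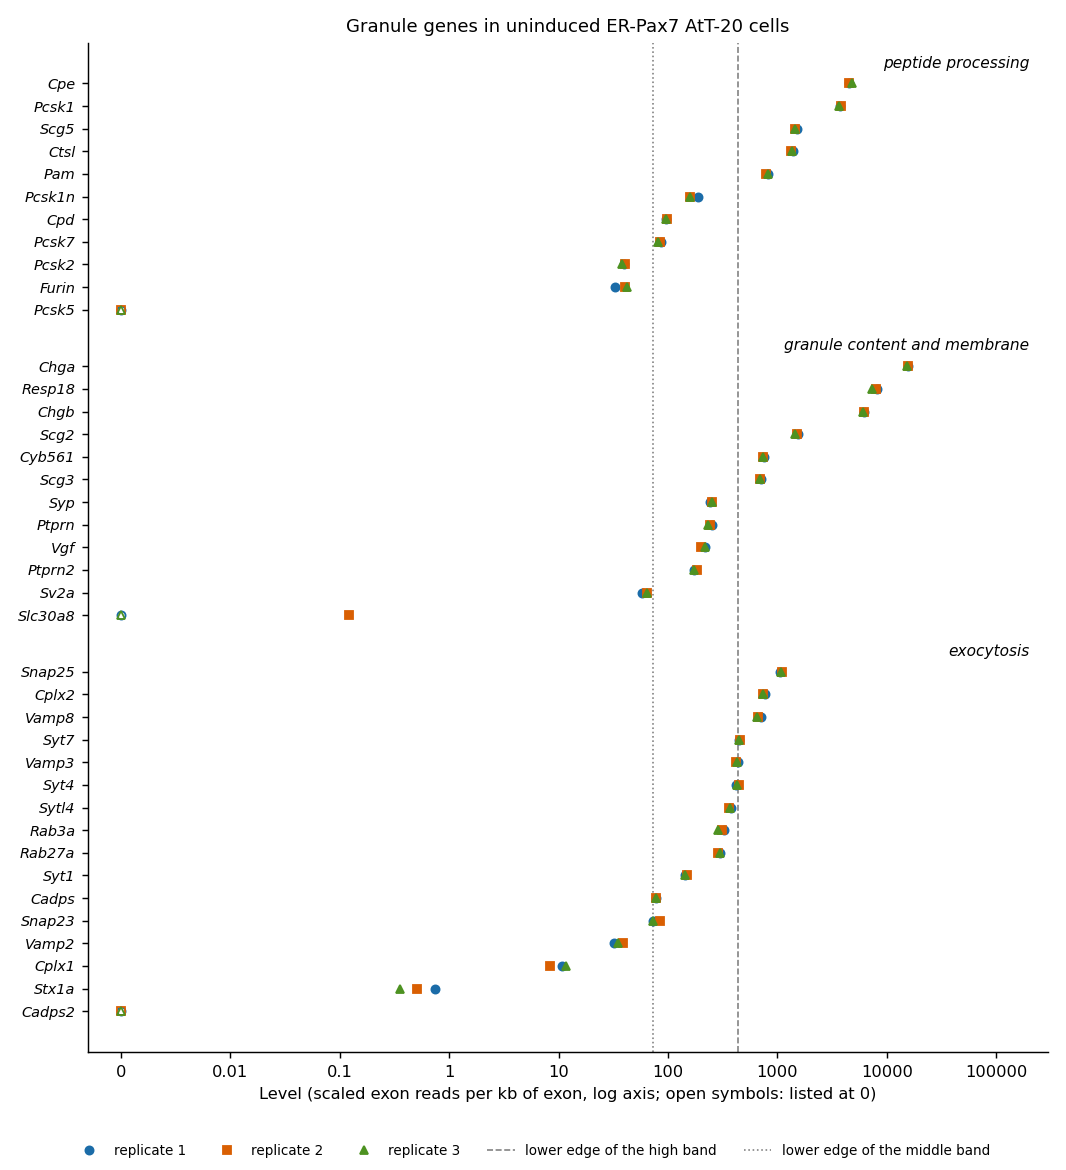
Level of processing, granule and exocytosis genes in each of the 3 uninduced libraries on a log axis, with open symbols for 0; the lines mark the lower edges of the high and middle bands. Chga, Resp18, Chgb, Cpe and Pcsk1 lie between 3669 and 15681 per kb, while Pcsk2 lies between 37.8 and 40.3.

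Genes of transmitter synthesis gave a mixed picture. Ddc, the decarboxylase that makes dopamine and serotonin from their amino acid precursors, read 2013, 2015 and 1859 per kb, in the high band. The enzymes that feed it were far lower. Tph1 stood at 9.43 per kb, 209 ± 15.5 times under Ddc, and tyrosine hydroxylase, Th, at 2.78 per kb, 705 ± 16.4 times under (SD, n = 3). The vesicular monoamine transporters Slc18a1 and Slc18a2 read 27.1 and 10.9 per kb, and the vesicular glutamate transporter Slc17a7 (VGLUT1) 118, 116 and 114. Dbh, Gad2, the dopamine and serotonin transporters Slc6a3 and Slc6a4 and the vesicular transporters Slc32a1 and Slc18a3 were among 7 members listed at 0.

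Of the receptors for hormones, peptides and amines the somatostatin receptors, which inhibit secretion, were highest. Sstr2 read 200.0, 192 and 176 per kb and Sstr5 read 177, 167 and 173, with overlapping values and a ratio of 1.10 ± 0.0730 (SD, n = 3). Sstr3 stood at 39.2 per kb, and Sstr1 and Sstr4 were listed at 0. The receptors that stimulate corticotropes were low. Crhr1, the receptor for corticotropin-releasing hormone, read 8.91, 6.76 and 8.63 per kb on 183, 140 and 256 mates, 23.7 ± 4.18 times under Sstr2. Avpr1b, the vasopressin receptor of corticotropes, was at trace with 6, 2 and 12 mates.

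Hrh3, a histamine receptor, at 58.1 and the chemokine receptor Cxcr4 at 57.6 per kb had overlapping values. Both subunits of the GABA-B receptor were detected (Gabbr1 44.3, Gabbr2 33.3), as were the muscarinic receptor Chrm4 (30.3) and Vipr1 (9.68). Among families, 0 of 5 dopamine receptors and 0 of 4 opioid receptors passed the detection rule, 2 of 10 serotonin receptors did, and of 5 melanocortin receptors only Mc1r did, at 2.02 per kb. Mc2r, the receptor for adrenocorticotropic hormone itself, was listed at 0, as were Gnrhr, Trhr and Ghsr. Of 54 members listed at 0, 49 were also at 0 in both Neo libraries.

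Glucocorticoid feedback genes were present with 1 receptor. Nr3c1, the glucocorticoid receptor, read 296, 323 and 318 per kb and was the highest of 49 nuclear receptors. Nr3c2, the mineralocorticoid receptor, which also binds glucocorticoids, had 0, 3 and 0 mates. The receptor's chaperones were in the high band: Hsp90ab1 at 3385, Hsp90aa1 at 2317, Ptges3 (p23) at 1913 and Fkbp4 at 647 per kb. Fkbp5, which lowers the receptor's affinity, was at 88.9, and the glucocorticoid-inducible gene Tsc22d3 at 338, 326 and 326. Of the enzymes that activate or inactivate glucocorticoids, Hsd11b1 stood at 4.31 per kb and Hsd11b2 was at trace with 8, 10 and 8 mates. Other nuclear receptors of the middle band included the orphan receptors Nr2f6 (194, with 54.4% of its exon length overlapping Ocel1) and Esrra (175) and the retinoid partner Rxrb (152). Thrb, Pgr and Nr0b1 (DAX1) were among 6 listed at 0, and the vitamin D receptor Vdr was at trace.

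Growth factor and cytokine receptors were detected for 42 of 57 members. Igf2r, a clearance and sorting receptor, at 318 and the fibroblast growth factor receptor Fgfr1 at 311 per kb led, with overlapping values. Il6st (gp130), the signalling chain shared by leukaemia inhibitory factor and interleukin-6, read 187, 196 and 200.5 per kb, and its partner Lifr 32.2, 32.7 and 33.2, a ratio of 5.95 ± 0.124 (SD, n = 3). The insulin receptor Insr read 104, 107 and 109 per kb, while Igf1r had no mate in any library (up to 0.0264 per kb) and was at 0 in both Neo libraries. The type I receptor for transforming growth factor beta, Tgfbr1, stood at 188, but the type II receptor Tgfbr2 was at trace with 4, 2 and 2 mates. Egfr was at trace with 1, 0 and 0 mates, Erbb2 stood at 0.859 and Erbb3 at 60.0 per kb.

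Among G proteins, Gnas, whose main product couples receptors to adenylyl cyclase, read 6835, 6742 and 6540 per kb, with 22.0% of its exon length shared with other annotated genes. The inhibitory subunits Gnai2 and Gnai3 stood at 595 and 399 per kb, while Gnai1 was at trace with 0, 0 and 1 mate. Gna11 at 440 exceeded its relative Gnaq at 193 per kb. Of 10 adenylyl cyclases 6 were detected, led by Adcy9 at 141 and the calcium-stimulated Adcy1 at 73.4 per kb.

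Voltage-gated calcium channels, which link firing to secretion, were detected for 20 of 26 genes. The auxiliary subunit Cacna2d1 read 753, 810 and 803 per kb, in the high band, and the beta subunit Cacnb3 stood at 105. The pore-forming subunits were lower, and 9 of 10 were detected. Cacna1a (P/Q type) stood at 46.3 and Cacna1b (N type) at 37.1 per kb, above the L-type Cacna1c at 22.3 and Cacna1d at 14.97 and the T-type Cacna1h at 10.3. Cacna1a exceeded Cacna1c by 2.07 ± 0.0888 times (SD, n = 3).

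Sodium channel genes were detected for 12 of 15 members. The pore subunit Scn3a stood at 44.2 per kb and the leak channel Nalcn at 26.1. Of 10 pore subunits in the list 8 were detected.

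Potassium channels were detected for 49 of 89 members. The two-pore channel Kcnk1 (TWIK1) read 623, 632 and 618 per kb and was the only one in the high band. Kcnk16 (TALK1), a two-pore channel known from pancreatic islets, stood at 212, and Kcnh6, of the ERG family, at 122 per kb. Kcnj3 (GIRK1), an inward rectifier opened by inhibitory G proteins, stood at 116 per kb with 31.1% of its exon length shared with an annotated transcript, Gm26794, and its partners Kcnj9 and Kcnj6 at 26.0 and 19.7. Both parts of the ATP-sensitive channel were present, Abcc8 at 53.2 and Kcnj11 at 14.9 per kb. The large-conductance calcium-activated channel Kcnma1 stood at 28.2 per kb. Of 8 Kcna genes 2 were detected, with Kcna1, Kcna3, Kcna4, Kcna5 and Kcna6 listed at 0.

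**Figure D5:**
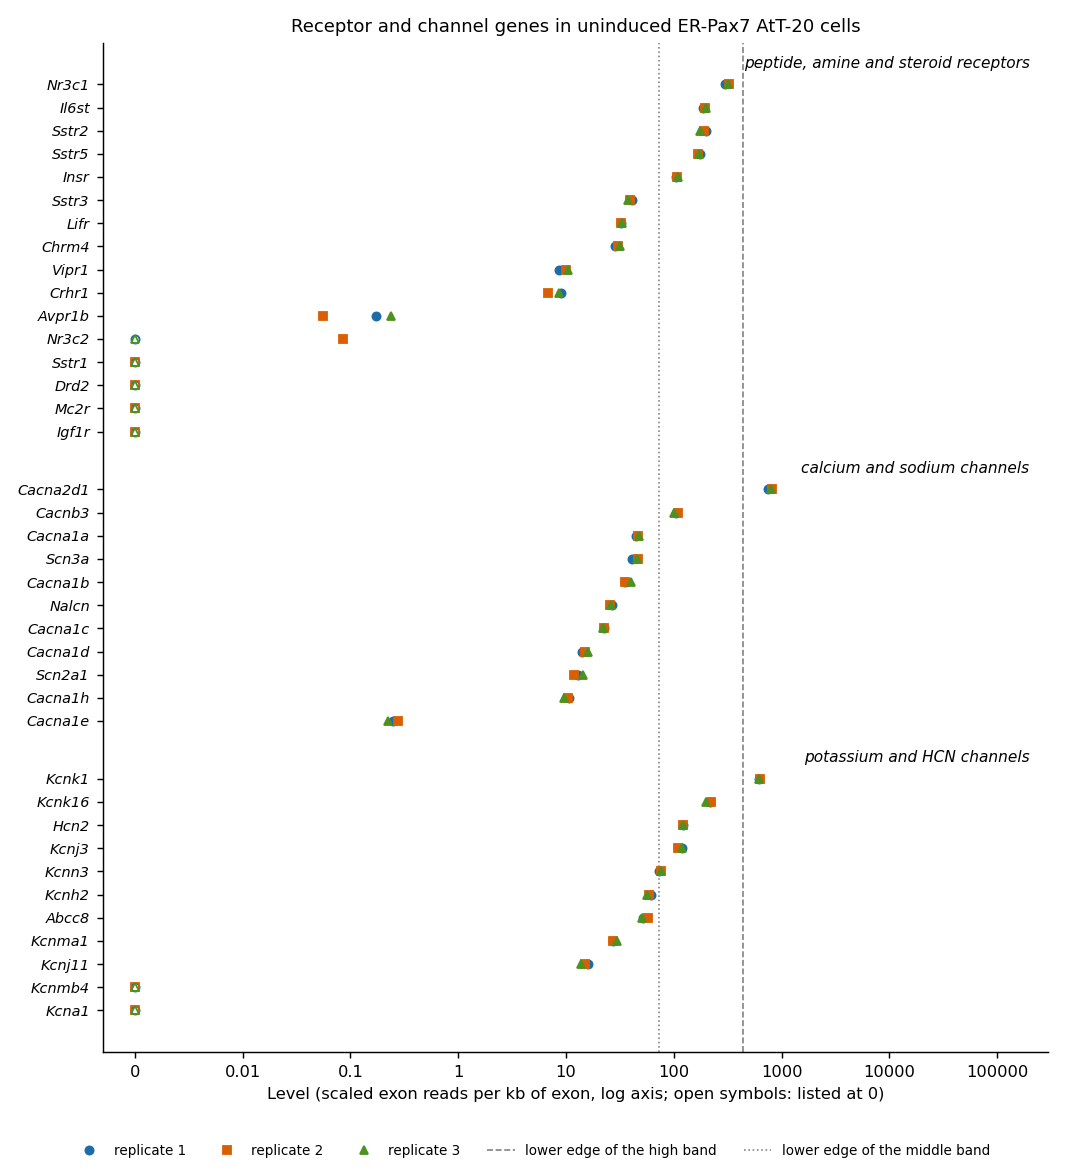
Level of receptor and channel genes in each of the 3 uninduced libraries on a log axis, with open symbols for 0; the lines mark the lower edges of the high and middle bands. Sstr2 and Sstr5 lie between 167 and 200.0 per kb and Crhr1 between 6.76 and 8.91, while Cacna2d1 and Kcnk1 are above the lower edge of the high band.

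Of channels of intracellular stores and related families, the inositol trisphosphate receptor Itpr3 led at 319, 336 and 322 per kb, 7.95 ± 0.582 times the level of Itpr1 (SD, n = 3). The pacemaker channel Hcn2 read 123, 122 and 122 per kb. Trpv2 stood at 165 and the store-operated channel subunit Orai3 at 123 per kb.

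Transmitter-gated channels were detected for 26 of 57 members, often without the partner subunits they assemble with. Glrb, the beta subunit of the glycine receptor, read 201, 217 and 204 per kb, while Glra1, Glra2 and Glra3 were listed at 0. Of GABA-A subunits, Gabrd stood at 4.11 and Gabra5 at 1.27 per kb, and Gabra2, Gabra6, Gabrb1 and Gabrb2 were listed at 0. The AMPA receptor subunit Gria2 read 106, 115 and 124 per kb, while Gria1 and Gria4 were at trace and Gria3 was listed at 0. Chrnb2, a neuronal nicotinic subunit, stood at 91.0 per kb, with Chrna2, Chrna3, Chrna4, Chrna6 and Chrna7 listed at 0. Htr3a, which can form a serotonin-gated channel alone, stood at 78.9 per kb and Htr3b was at 0.

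Markers of other cell types were read to check the label of a corticotrope line. Markers of somatotropes, lactotropes, thyrotropes and gonadotropes were at or near 0, apart from Dio2, a deiodinase, at 47.0 per kb. Summed levels over the marker list were 4.46 to 5.10 per kb for gonadotropes (2 of 6 detected), 13.0 to 13.2 for endothelium (2 of 7), 5.28 to 7.20 for fibroblasts and pericytes (3 of 8) and 2.45 to 6.78 for red blood cells (1 of 8). For immune cells the sum was 62.8 to 68.3 per kb (3 of 8), mostly lysozyme Lyz2 at 55.4, while Cd3e and Itgam were listed at 0 and Ptprc was at trace. For folliculostellate and stem cells it was 38.1 to 41.5 per kb (4 of 8), mostly Sox2, and for skeletal muscle 45.2 to 47.8 (3 of 8), mostly the embryonic myosin Myh3 at 41.5, with Myod1 and Myf5 listed at 0. Markers of 3 further types gave larger sums: 4634 to 4990 per kb for epithelium (7 of 10 detected, led by Krt8 at 3059), 3382 to 3551 for neurons (7 of 9, led by Tubb3 at 1496) and 286 to 301 for glia (3 of 6, mostly Mbp at 291). Other members of these lists, such as Cdh1, Rbfox3 and Gfap, were at trace. In the high band were 3 epithelial and 2 neuron markers. The melanotrope list summed to 735 to 787 per kb (4 of 6 detected), mostly the construct gene Pax7 and Megf11. Of corticotrope genes, Pomc and Tbx19 were in the high band, Pitx1 and Crhr1 were low and Avpr1b was at trace. Melanotropes also make Pomc, so Pomc, and Tbx19 as the factor of Pomc cells, do not tell the 2 cell types apart.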

How the data were processed

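Ribosomal RNA was removed from total RNA, and paired reads of 50 bp were obtained, per the labels. TopHat, HOMER and edgeR and the build mm10 (GRCm38) are named per the submitters' processing notes, and versions are not given in the sources used here. Per the file headers, the authors used HOMER to count reads over the exons of RefSeq genes regardless of strand. The deposited signal values are these reads after scaling of each library to 7213570, as their sums show. The Neo table holds deposited FPKM over gene bodies and was used only for presence. The authors' deposited log2 and p-value columns were not used.

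Deposited values were divided by exon length in kb. Read mates were recovered from low values, of which 100% were whole within 0.1 reads. In a test on simulated counts for 24063 genes, scaled and rounded like the deposited values, detection was wrong for 0. That test drew reads independently and checks only the recovery of counts, so it does not bear on the choice of the detection rule. Reads carry no molecular identifiers, so the limit for a value of 0 (3 mates) covers counting error only. Means are given with the SD of 3 libraries. No test was made, because there is 1 group and the order of genes is set by the values described. Neighbouring genes are said to overlap where their library values do.

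Members and lists were chosen with earlier results of these data known, and the housekeeping genes, ratios, families and motifs after the values were seen. Named are the construct genes, Pomc, the 15 highest messenger RNAs, all members of the hormone, corticotrope, melanotrope and sex chromosome lists, the highest 5 of other lists, members with known roles in corticotropes and well-known members at 0; further partners were named after their values were seen. Some members of the lists are counted but not reported here by name. 2 list symbols (of Drd1 and Stxbp3) were matched by a synonym. Exon overlap was read on either strand from the GENCODE annotation of GRCm38. Python 3.11.15, pandas 2.3.3 and edgeR 4.0.16 (TMM) were used.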

Additional observations from a re-analysis of the deposited data

How the results depend on the processing

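Of the counts per list, the total count and the rank of Pomc, 248 values under alternative settings stayed within 1.5 times of the main value and 12 did not. Pomc ranked 1 among messenger RNA accessions, 1 among genes of at least 500 bases and 1 without division by length, against 2 per kb among all genes. With a minimum of 30 mates, 1 pituitary hormone gene was detected, 1 gonadotrope, 1 endothelial and 1 fibroblast marker. With any value above 0, 48 receptors, 4 endothelial and 5 glia markers were counted, and 5 glia markers also with a minimum of 3 mates or of 0.1 per kb. Among the 519 mean levels of detected members, the largest change was 1.35-fold without replicate 3, 1.31-fold without replicate 1 and 1.30-fold without replicate 2, and TMM factors lay between 0.9995 and 1.0003. Members at under 1 per kb rest on few mates, so their order is uncertain. No paired analysis was possible because the description covers 1 group.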

Other observations

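Growth control genes were detected for 26 of 27 members. The topoisomerase Top2a stood at 2463 ± 36.7 per kb and the proliferation marker Mki67 at 710 ± 24.6 (SD, n = 3). Of the cyclin D kinases, Cdk4 read 1778, 1657 and 1617 per kb and Cdk6 read 1.00, 0.898 and 0.695. Of the D cyclins, Ccnd3 stood at 75.7 and Ccnd1 at 12.1 per kb, and Ccnd2 had no mate in any library. The kinase inhibitors Cdkn2c (649), Cdkn2d (465) and Cdkn1b (319) were in the high or middle band, while Cdkn2a stood at 15.5 and Rb1 at 12.9 per kb. Genes known from pituitary tumours were present: Usp8 at 221, Trp53 at 218 and Men1 at 178 per kb.

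Xist, the RNA of the inactive X chromosome, read 189, 211 and 237 per kb, and its antisense partner Tsix 58.4, 62.9 and 63.0. Without strand their shared exons cannot be told apart (32.6% of Tsix exon length overlaps annotated exons of other genes). Of 6 Y-linked genes Uty was at trace with 2, 2 and 1 mates, and Ddx3y, Kdm5d, Eif2s3y, Zfy1 and Zfy2 were listed at 0. Of imprinted genes 16 of 24 were detected, with Mest at 230.3 and Impact at 155 per kb beside Gnas, and H19, Ndn and Magel2 listed at 0.

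Epithelial and neuronal genes were present with gaps. The keratins Krt8 (3217, 2924 and 3037 per kb) and Krt18 (796, 724 and 776) kept a ratio of 4.00 ± 0.0725 (SD, n = 3), and Cldn3, Ocln and Epcam stood at 439.4, 221 and 191 per kb. Cdh1 (E-cadherin) had 1, 2 and 0 mates, and Krt19 was at trace. Among neuronal genes Tubb3 stood at 1496 and Nefl at 1216 per kb, with 32.8% of Nefl exon length shared with Nefm transcripts, and Map2 at 250. Rbfox3 (NeuN) was at trace and Stmn2 was listed at 0. Mbp, a myelin gene, stood at 291 per kb, while Gfap was at trace and Mag was listed at 0.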
